A study of Mus musculus with 2 samples.

Results

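Microglia of the aged mouse hippocampus were described from the authors' deposited table for the cell type they named Microglia, taking every gene row of that table. It holds 2534 genes, out of 10596 genes that appear in at least 1 of the 9 cell type tables of the series. Each row compares nuclei of a library from mice given Gulf War chemicals, called the GWI library here, with nuclei of a control library. For each gene the table gives a log2 fold change of mean expression, GWI over control, and the percentage of microglial nuclei of each library in which the gene was detected.

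The study profiled nuclear RNA of hippocampus by droplet-based sequencing of transcript 3′ ends. Male mice of 10 weeks received pyridostigmine bromide at 0.7 mg/kg together with permethrin at 200 mg/kg, or vehicle only, by intraperitoneal injection once daily for 10 days, and were killed at 19 months of age. Pyridostigmine bromide is a cholinesterase inhibitor and permethrin a pyrethroid insecticide, and the combination is used in rodents to model Gulf War Illness. The series text gives the strain as C57BL/6J, while the genotype labels read C57/BL6 for control and C57/BL7 for GWI, a difference that cannot be checked here. The hippocampi of 3 mice were pooled in each group before nuclei were isolated, so each group is 1 library and the spread between mice is not known. No test, standard error or interval could be given, and every difference below is between these 2 libraries.

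Microglia are the resident macrophages of the brain, which enter it early in development and renew themselves there. They depend on signals through the CSF1 receptor and TGF-beta, survey the tissue with motile processes guided by purine receptors, and clear debris and synapses through complement, phagocytic receptors and lysosomes. In ageing and disease many microglia lower their surveillance genes while raising lysosomal and lipid-handling genes, a programme often called the disease-associated state.

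The label was checked against 5 markers of microglia, of which 4 are in the authors' deposited table. The fractalkine receptor gene Cx3cr1 was detected in 72.3% of GWI and 65.8% of control nuclei, and the purine receptor gene P2ry12 in 79.7% and 66.7%. C1qa, which encodes a chain of complement C1q, was detected in 58.7% and 39.1%, and the surface protein gene Tmem119 in 26.9% and 20.6%. The remaining marker, Csf1r, is not listed and was not analysed here. P2ry12 was detected in 11.6% of GWI and 8.9% of control nuclei in the excitatory neuron table and in 10.2% and 6.9% in the astrocyte table, and C1qa is listed in none of the other 8 tables. Markers of border macrophages were represented by 1 of 10 genes, Stab1, and 0 of 14 markers of blood leukocytes, 0 of 7 of endothelial cells and 0 of 7 of pericytes were listed. The microglia table holds no gene under 10% detection in both libraries, and none with a log2 fold change within 0.05 of 0. A gene can thus be expressed and not listed, so absence from a table cannot decide whether the label holds.

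Transcripts of neurons and other glia were nonetheless present in the microglial nuclei. Of 82 markers of cell types other than microglia, 15 were listed, and their mean detection was 23.4% in GWI and 24.7% in control nuclei. The synaptic vesicle gene Syt1 was detected in 62.1% of GWI and 70.0% of control microglial nuclei. The same gene was detected in 62.3% and 68.5% of oligodendrocyte nuclei and in 98.8% and 99.0% of excitatory neuron nuclei. How free RNA and doublets were treated is not stated in these sources, and the part that transcripts from other cells play in the values below was not tested.

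The differences between the libraries were small for most genes. The log2 fold changes ran from -0.86 to 1.32 with a median of -0.06, a lower quartile of -0.18 and an upper quartile of 0.17. The authors' deposited table has 1186 genes that were higher in the GWI library and 1348 that were lower, so 46.8% of listed genes were higher. A log2 fold change of 1 or more, the size used here to single out genes, was reached by 3 genes in the higher direction, which is 0.118% of the table, and by 0 genes in the lower direction. At a size of 0.5, 75 genes (2.96%) were higher and 58 genes (2.29%) were lower. Whether the log2 scale used by the authors includes a pseudocount is not known. Sparsely detected genes could still have large values in either direction. Examples are Zc3h6, detected in 10.3% of GWI and 5.6% of control nuclei (0.90), and Pkm, in 7.1% and 10.2% (-0.82).

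A pair of features of the table bears on every count given here. First, the table holds no gene detected in under 10% of nuclei in both libraries, and none whose log2 fold change lay within 0.05 of 0. The 10% was reached in the GWI library only by 278 genes and in the control library only by 62, and a gene that entered through the library in which it was high had to differ. Among the 2194 genes at or above 10% in both libraries, 42.4% were higher in GWI. Second, 67.4% of the listed genes were detected in more GWI than control nuclei, although only 46.8% had a log2 fold change above 0. A gene could thus be detected more often in GWI nuclei and still have a negative log2 fold change, which held for 526 genes, while 3 showed the reverse. Over all listed genes the median log2 ratio of detection percentages was 0.095, the value against which list medians by that ratio are read. The number of molecules counted in each nucleus is not given in these sources.

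**Figure D1:**
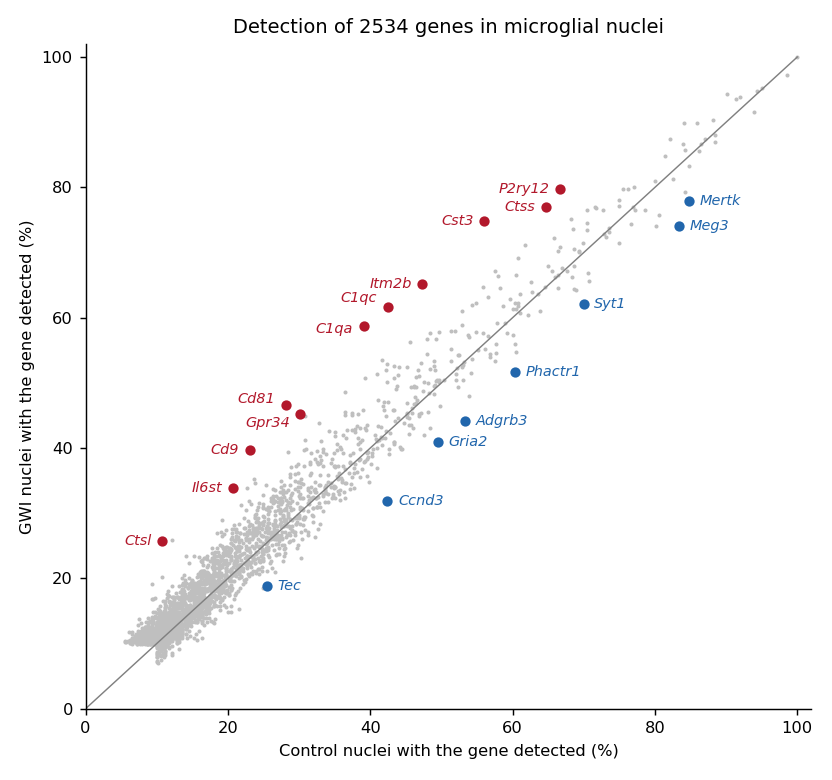
Percentage of microglial nuclei with each gene detected, control library on the horizontal axis and GWI library on the vertical axis, for the 2534 listed genes (grey points). Red and blue points mark genes described in the text, and the line marks equal detection. Ctsl, Cd9, Cst3 and C1qa lie well above the line, and Ccnd3, Meg3 and Mertk lie below it.

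The 3 genes past the size of 1 were Ctsl, Mir142hg and Gm35188. Ctsl, the gene of the lysosomal protease cathepsin L, was detected in 25.8% of GWI and 10.8% of control nuclei, with a log2 fold change of 1.32. It lies at chr13:64359337-64370890 on the minus strand of GRCm38. Gm35188, a long intergenic noncoding RNA gene at chr12:52496326-52581409 on the minus strand, was detected in 25.9% and 12.1% of nuclei, with a log2 fold change of 1.09. In 4 other tables its log2 fold change was 0.67 in excitatory neurons, 0.60 in inhibitory neurons, 0.81 in astrocytes and 0.52 in the group named Other.

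Mir142hg, a noncoding RNA gene at chr11:87755577-87757270 on the plus strand, was detected in 19.2% of GWI and 9.3% of control nuclei, with a log2 fold change of 1.07, and is listed in no other table. It is the host transcript of miR-142, a microRNA gene expressed throughout the blood and myeloid lineage. The mature microRNAs, which lie within the host gene at chr11:87756867-87756887 and chr11:87756903-87756925, are shown because the host is among the 3 genes, with the seed (bases 2 to 8) in capitals, from RefSeq on GRCm38.p6. The different seeds of the 5′ and 3′ arms give them different targets, and neither mature form was measured in these libraries.
mmu-miR-142a-5p: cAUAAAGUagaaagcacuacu
mmu-miR-142a-3p: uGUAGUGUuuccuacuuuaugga

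Genes of the surveying, homeostatic microglial surface were higher in the GWI library throughout the listed members. Of 20 such genes, 16 are in the authors' deposited table and 16 of these had log2 fold changes above 0, with a median of 0.37 against -0.06 over all listed genes. Of the 16, 14 were at or above 10% detection in both libraries. Gpr34, which encodes a lysophosphatidylserine receptor, was detected in 45.3% of GWI and 30.2% of control nuclei, with a log2 fold change of 0.66. P2ry12, which guides microglial processes toward released nucleotides, had a log2 fold change of 0.55. Adgrg1, an adhesion receptor gene, was at 13.5% and 9.0% (0.52), Sparc, a matricellular protein gene, at 53.5% and 41.7% (0.49), and Ltc4s, the leukotriene C4 synthase gene, at 11.7% and 7.7% (0.47). The smallest difference of the listed members was that of the lectin gene Siglech, detected in 52.1% and 48.4% of nuclei with a log2 fold change of 0.15. Cx3cr1 and Tmem119 stood at 0.23 and 0.36.

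Purine receptors of microglia showed the same direction in 3 of the 4 listed genes of 9. After P2ry12, the ADP receptor gene P2ry13 was detected in 20.3% of GWI and 16.6% of control nuclei (0.33), and P2rx7, the ATP-gated channel gene that triggers the inflammasome, in 22.6% and 17.7% (0.22). P2ry6, whose product senses UDP and promotes phagocytosis, was detected in 21.4% and 20.4% with a log2 fold change of -0.09.

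The transcription factors that set microglial identity were divided. Of 24 such genes 12 are listed, 7 higher and 5 lower, with a median of 0.12. After subtracting other tables, possible for 5 of the 12, the median was 0.306. Etv5, an ETS-family factor gene, stood apart with detection in 20.2% of GWI and 10.8% of control nuclei and a log2 fold change of 0.92. Maf, whose product takes part in macrophage identity, was detected in 45.5% and 36.5% of nuclei (0.31). Mef2c and Mef2a, which help set microglial enhancers, were at 0.21 and 0.18, and Smad3, a TGF-beta effector gene, was at 0.20. Some factors, of which Spi1 and Ikzf1 were named after their values were seen, lay slightly below 0. Spi1, which encodes PU.1, was detected in 19.3% and 19.4% of nuclei with a log2 fold change of -0.10, Sall1 in 33.1% and 33.6% (-0.15), and Ikzf1 in 67.2% and 67.6% (-0.14). Their detection was thus nearly equal in the 2 libraries.

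The pathways that maintain microglia were also divided. Of 14 TGF-beta genes 8 are listed and 6 were higher, with a median of 0.08. Nrros, which presents latent TGF-beta to microglia, was detected in 23.2% of GWI and 16.6% of control nuclei, with a log2 fold change of 0.45. Smad7 (0.18), Tgfb1 (0.08), Itgav (0.08) and the receptor gene Tgfbr2 (0.07) were slightly above 0, and Ski (-0.10) and Smad2 (-0.12) below it. A list of 21 genes for CSF1 receptor signalling also holds genes of other myeloid signalling, such as Csf3r and Pik3r5. Of the 21, 10 are listed and 2 were higher, with a median of -0.11, and Csf1r is not among the listed genes. Of the 10, 5 were detected in more GWI nuclei. The median log2 ratio of detection percentages was -0.006, against 0.095 over all listed genes. Pik3r5, a regulatory subunit of PI3 kinase gamma, was lowest, detected in 14.9% of GWI and 20.4% of control nuclei, with a log2 fold change of -0.62. Csf3r, the receptor gene for granulocyte colony-stimulating factor, was at -0.24, while Syk, Dock2 and Btk lay between -0.13 and -0.10.

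Complement genes were higher in all 6 listed members of 15, with a median log2 fold change of 0.32, and 5 of the 6 reached 10% detection in both libraries. The C1q chains start the classical complement cascade and tag synapses for removal. C1qc was detected in 61.6% of GWI and 42.5% of control nuclei (0.84), C1qa in 58.7% and 39.1% (0.75), and C1qb in 37.8% and 31.6% (0.32). The 3 genes lie next to each other on the minus strand of chromosome 4, at chr4:136880129-136886187 for C1qb, chr4:136889804-136893065 for C1qc and chr4:136895917-136898803 for C1qa. C3ar1, the receptor gene for the C3a fragment, was at 10.4% and 7.4% (0.32), and Itgam, which encodes a chain of complement receptor 3, at 42.0% and 36.2% (0.25). The initiating chains and the receptors therefore lay on the same side of 0. The gene for C3 is not listed.

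The promoter of C1qc was searched for GAGGAAGT, a site of PU.1, on both strands, with the promoter taken as the 250 bases before the gene start given by RefSeq on GRCm38.p6. It is the only one of the 4 complement genes with a promoter sequence that holds these letters, which occur in 3.69% of all 27025 promoters and in 4.37% of those of the microglia table. The window, chr4:136892915-136893164 on the minus strand, is shown with the site in capitals, read here as its reverse complement ACTTCCTC. A match is a description of the sequence and not of binding.
C1qc: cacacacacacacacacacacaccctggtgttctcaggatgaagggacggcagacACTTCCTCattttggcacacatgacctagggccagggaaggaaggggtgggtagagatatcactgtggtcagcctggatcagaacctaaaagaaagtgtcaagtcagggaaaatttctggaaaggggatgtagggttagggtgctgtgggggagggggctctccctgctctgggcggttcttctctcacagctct

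Fc receptors and Trem2 signalling, which trigger phagocytosis through shared adaptor chains, had 9 of 16 genes listed, 7 higher and 2 lower, with a median of 0.23. Fcer1g, the common signalling chain of activating Fc receptors, was detected in 23.4% of GWI and 14.1% of control nuclei, with a log2 fold change of 0.80. Fcgr2b, the inhibitory Fc receptor gene, was at 13.1% and 7.8% (0.65), and the sialic acid receptor gene Cd33, also inhibitory, at 28.2% and 20.9% (0.36). Activating and inhibitory receptors thus lay on the same side. Fcgr1 was at 0.30, Trem2, a lipid-sensing receptor gene of the disease-associated state, at 29.5% and 23.8% (0.23), and the kinase gene Syk at 18.1% and 17.0% (-0.13). Of the 9 genes, 6 reached 10% detection in both libraries, and 4 of those 6 were higher.

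Receptors and effectors of engulfment were evenly divided, with 5 of 10 listed genes higher, out of 21, and a median of -0.01. Lrp1, a large scavenger and apolipoprotein receptor gene, was detected in 41.3% of GWI and 30.9% of control nuclei (0.47), and Pros1, which bridges dying cells to TAM receptors, in 36.0% and 28.7% (0.23). Mertk, the TAM receptor gene itself, was detected in 77.9% of GWI and 84.8% of control nuclei, with a log2 fold change of -0.32. The ligand and its receptor therefore differed in direction. Stab1 (-0.18), Cyba (0.15) and Dock2 (-0.12) completed the larger differences.

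Lysosomal proteases and their inhibitor were higher in the GWI library in all 10 listed genes of 16, with a median of 0.34, and 9 of the 10 reached 10% detection in both libraries. After Ctsl, the largest difference was that of Cst3, which encodes the secreted cathepsin inhibitor cystatin C and was detected in 74.8% of GWI and 56.0% of control nuclei (0.97). Ctss, the gene of cathepsin S, a protease of macrophage lysosomes, was at 77.0% and 64.7% (0.63), Ctsz at 18.4% and 13.7% (0.44), Ctsa at 11.6% and 8.9% (0.36) and Ctsd, the major aspartic protease gene of the lysosome, at 56.7% and 49.2% (0.33). The smallest difference was that of Lgmn, which encodes the processing protease legumain, at 66.6% and 60.5% (0.21). Protease and inhibitor genes thus differed in the same direction.

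Lysosomal membrane proteins, proton pump subunits and hydrolases had 21 of 33 genes listed, 17 higher and 4 lower by log2 fold change, with a median of 0.27. Lamp1, the abundant lysosomal membrane glycoprotein gene, was detected in 35.2% of GWI and 23.7% of control nuclei, with a log2 fold change of 0.61. Laptm4a and Laptm5, genes of lysosomal transmembrane proteins, were at 17.0% and 11.4% (0.60) and at 50.8% and 39.3% (0.49). All 21 listed genes were detected in more GWI than control nuclei, against 67.4% of all genes of the table. By log2 fold change alone, subunit genes of the proton pump that acidifies the lysosome were split. Atp6v0c was at 23.4% and 15.2% (0.54) and Atp6v0b, which was outside the list, at 33.8% and 22.7% (0.54), while Atp6v1b2 (-0.30), Atp6v1a (-0.11) and Atp6v0d1 (-0.06) lay below 0. Asah1, the acid ceramidase gene, was at 24.7% and 17.8% (0.46). Of 15 genes of their upstream regulators, the MiT/TFE factors and mTORC1, 8 are listed and 2 were higher, with a median of -0.13. That median was -0.005 by the log2 ratio of detection percentages, against 0.095 over all listed genes, and -0.029 after subtracting other tables. Of the 8, 4 were detected in more GWI nuclei. Tfeb, a transcription factor that activates lysosomal genes, was detected in 11.2% of GWI and 14.7% of control nuclei, with a log2 fold change of -0.67. The mTORC1 inhibitor gene Tsc1 was at -0.49 and its activator Rheb at 0.54, with Fnip2 at -0.15, Fnip1 at 0.15, Mtor at -0.11 and Rptor at -0.07. Only 3 of 20 autophagy genes are listed, with Atg10 at 0.18, Atg5 at -0.09 and Atg16l1 at -0.18.

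Promoters of these genes were searched for CACGTG, the core of the element through which MiT/TFE factors act, on both strands. It occurs in the promoters of 4 of the 8 cathepsin and cystatin genes with a sequence, namely Ctsa, Ctsd, Ctsl and Lgmn, and of 3 of 17 lysosomal membrane and hydrolase genes, namely Lamp1, Atp6v0d1 and Atp6v1a. It occurs in 11.7% of promoters of the microglia table and in 8.09% of all promoters, and in 0 of 4 complement promoters. The windows of Ctsl, chr13:64370521-64370770 on the minus strand, and Lamp1, chr8:13158911-13159160 on the plus strand, are shown as the highest member of each list, with the motif in capitals, from RefSeq on GRCm38.p6. The Ctsl window lies within the annotated gene, since RefSeq's start is further in than the outermost annotated one, and it holds 1 copy, while the Lamp1 window holds 4. The lists were known to be high when they were searched, and a match says nothing of whether a factor binds.
Ctsl: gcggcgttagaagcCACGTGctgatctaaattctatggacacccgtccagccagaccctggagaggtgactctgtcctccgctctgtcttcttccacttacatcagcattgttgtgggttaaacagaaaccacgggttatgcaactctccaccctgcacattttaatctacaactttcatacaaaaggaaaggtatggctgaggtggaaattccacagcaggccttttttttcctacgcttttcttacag
Lamp1: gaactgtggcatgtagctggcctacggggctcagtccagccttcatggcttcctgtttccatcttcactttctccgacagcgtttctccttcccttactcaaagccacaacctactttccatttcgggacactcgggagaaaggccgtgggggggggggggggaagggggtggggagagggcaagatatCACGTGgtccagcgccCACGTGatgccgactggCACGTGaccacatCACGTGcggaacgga

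**Figure D2:**
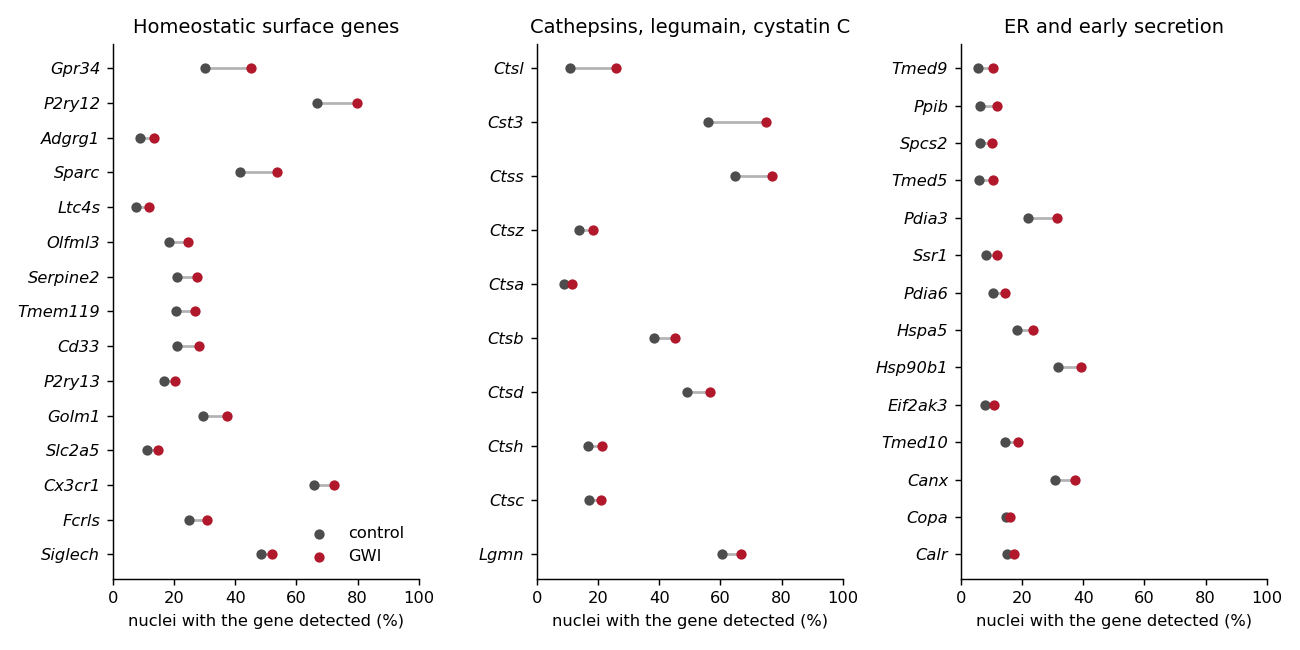
Percentage of microglial nuclei with the gene detected in the control library (grey) and the GWI library (red), each point 1 library, for 15 of the listed homeostatic surface genes, the cathepsin and cystatin genes, and the genes of the endoplasmic reticulum (ER) and early secretion, ordered by log2 fold change. The red point lies to the right of the grey one for each gene shown.

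Tetraspanins, membrane organisers that include exosome and lysosome markers, were higher in all 9 listed genes of 14, with a median of 0.27. Cd9, which belongs to the disease-associated state, was detected in 39.7% of GWI and 23.1% of control nuclei, with a log2 fold change of 0.99. Cd81 was at 46.6% and 28.2% (0.92), Tspan3 at 11.5% and 7.1% (0.47), Cd53 at 17.3% and 11.8% (0.46), Cd63 at 17.4% and 13.8% (0.27) and Cd37 at 20.4% and 16.5% (0.27). Cd9 and Cd81 stood well above the rest of the family. Of 25 genes of the disease-associated state 9 are listed and 8 were higher, with a median of 0.33. After subtracting the median of the other tables, possible for 6 of the 9, the median was 0.092. The higher genes were Ctsl, Cd9, Ctsz, Ctsb, Ctsd, Cd63, Trem2 and B2m, of which 4 are cathepsins and 2 are tetraspanins already given. The lower gene was Ank (-0.15). Spp1, Itgax, Clec7a and Lpl, classical members of that state, are not listed and were not analysed here.

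Genes of the ER and the early secretory pathway were higher in all 14 listed genes of 42, with a median of 0.38. For 6 of the 14 the 10% detection minimum was met in the GWI library only, so that these could be listed only if they were higher there. Among those 6 were the cargo receptor gene Tmed9, detected in 10.4% of GWI and 5.6% of control nuclei (0.84), the prolyl isomerase gene Ppib, at 11.8% and 6.1% (0.77), Tmed5, at 10.4% and 6.0% (0.68), and Spcs2, a signal peptidase subunit gene, at 10.1% and 6.2% (0.68), and Ssr1, a translocon-associated protein gene, at 11.9% and 8.3% (0.45). The other 8, which met the minimum in both libraries, were also higher. Pdia3, a disulfide isomerase gene of glycoprotein folding, was at 31.3% and 21.8% (0.67), and the stress-induced chaperone genes Hspa5 and Hsp90b1 were at 23.4% and 18.3% (0.36) and at 39.3% and 31.7% (0.32). Canx and Calr, the lectin chaperone genes, were at 0.13 and 0.08.

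Chaperones of the cytosol lay in the other direction. Of 20 such genes 5 are listed, 0 higher and 5 lower, with a median of -0.22. By the log2 ratio of detection percentages the median was -0.037, against 0.095 over all listed genes. Hsp90ab1, the constitutive HSP90 gene, was detected in 18.5% of GWI and 25% of control nuclei, with a log2 fold change of -0.63. Fkbp5, an HSP90 co-chaperone gene induced by glucocorticoids, was at 16.8% and 20.8% (-0.67). Hsp90aa1 (-0.22), Dnaja1 (-0.18) and Hspa4 (-0.12) had nearly equal detection, at 17.0% and 17.3%, 10.5% and 10.6%, and 15.5% and 15.9%. The glucocorticoid receptor gene Nr3c1 was at 42.4% and 35% (0.20) and the mineralocorticoid receptor gene Nr3c2 at 32.3% and 30.6% (0.09). The HSP90 genes of the ER and of the cytosol thus differed in opposite directions.

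The ER genes and cytosolic chaperones were compared for the ER stress response element, CCAAT and CCACG separated by 9 bases, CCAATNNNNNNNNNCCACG, searched on both strands. It occurs in 5 of the 14 ER promoters, those of Calr, Canx, Hsp90b1, Hspa5 and Pdia6, and in 0 of 3 cytosolic chaperone promoters, against 0.348% of the promoters of the microglia table and 0.137% of all promoters. The 6 elements are shown within 60 bases of RefSeq sequence on GRCm38.p6 because their spacing can be read directly, with the element in capitals, and 2 of them run on the other strand, starting with CGTGG. Log2 fold changes of these 5 genes ran from 0.08 for Calr to 0.40 for Pdia6, and the 4 highest genes of the list, Tmed9, Ppib, Tmed5 and Spcs2, do not hold the element in their windows. The stretches lie at chr8:84847055-84847114 (Calr, minus strand), chr11:50325780-50325839 (Canx, minus), chr10:86705618-86705677 and chr10:86705513-86705572 (Hsp90b1, minus), chr2:34772004-34772063 (Hspa5, plus) and chr12:17266470-17266529 (Pdia6, plus). The Hspa5 stretch lies within the annotated gene, which starts at chr2:34771970. The directions of both lists were known when they were searched. The counts describe promoter sequence and not these libraries, and a match says nothing of whether a factor binds.
Calr: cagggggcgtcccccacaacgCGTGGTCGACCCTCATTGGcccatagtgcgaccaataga
Canx: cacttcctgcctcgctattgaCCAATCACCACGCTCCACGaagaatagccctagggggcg
Hsp90b1, distal element: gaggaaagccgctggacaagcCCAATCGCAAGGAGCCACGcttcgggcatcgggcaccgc
Hsp90b1, proximal element: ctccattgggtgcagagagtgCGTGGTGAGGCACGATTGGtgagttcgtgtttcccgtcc
Hspa5: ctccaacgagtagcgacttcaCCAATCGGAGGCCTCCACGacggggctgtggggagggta
Pdia6: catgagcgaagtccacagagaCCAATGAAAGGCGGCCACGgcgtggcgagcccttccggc

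RNA-binding proteins of splicing were higher in 18 of 24 listed genes of 29, with a median of 0.18. Srsf7 was detected in 16.8% of GWI and 9.5% of control nuclei (0.71), Srsf5 in 34.4% and 25.3% (0.49), and Srsf2 in 17.1% and 12.1% (0.47), all encoding serine/arginine-rich factors that promote exon inclusion. Srsf11 (0.43) and Srsf6 (0.36) had the same direction, and Hnrnpa2b1, an RNA-binding protein gene that also sorts RNA for transport, was at 44.9% and 30.8% (0.48). The 6 lower genes were Son (-0.08), Mbnl2 (-0.12), Celf4 (-0.15), Rbfox1 (-0.16), Celf2 (-0.17) and Celf1 (-0.19), named after their values were seen. Chromatin regulators were lower in 17 of 22 listed genes of 32, with a median of -0.12. The median became 0.009 when the log2 ratio of detection percentages was used instead, against 0.095 over all listed genes. Smarca4, the ATPase gene of the BAF remodelling complex, was detected in 12.2% of GWI and 13.5% of control nuclei (-0.47), Chd3 in 10.5% and 11.3% (-0.38), Arid1a, another BAF subunit gene, in 39.1% and 42.7% (-0.31), Tet2 in 19.3% and 19.3% (-0.29) and the histone methyltransferase gene Kmt2a in 31.0% and 32.5% (-0.25). The class IIa deacetylase gene Hdac9 went the other way, at 49.0% and 43.6% (0.26).

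**Figure D3:**
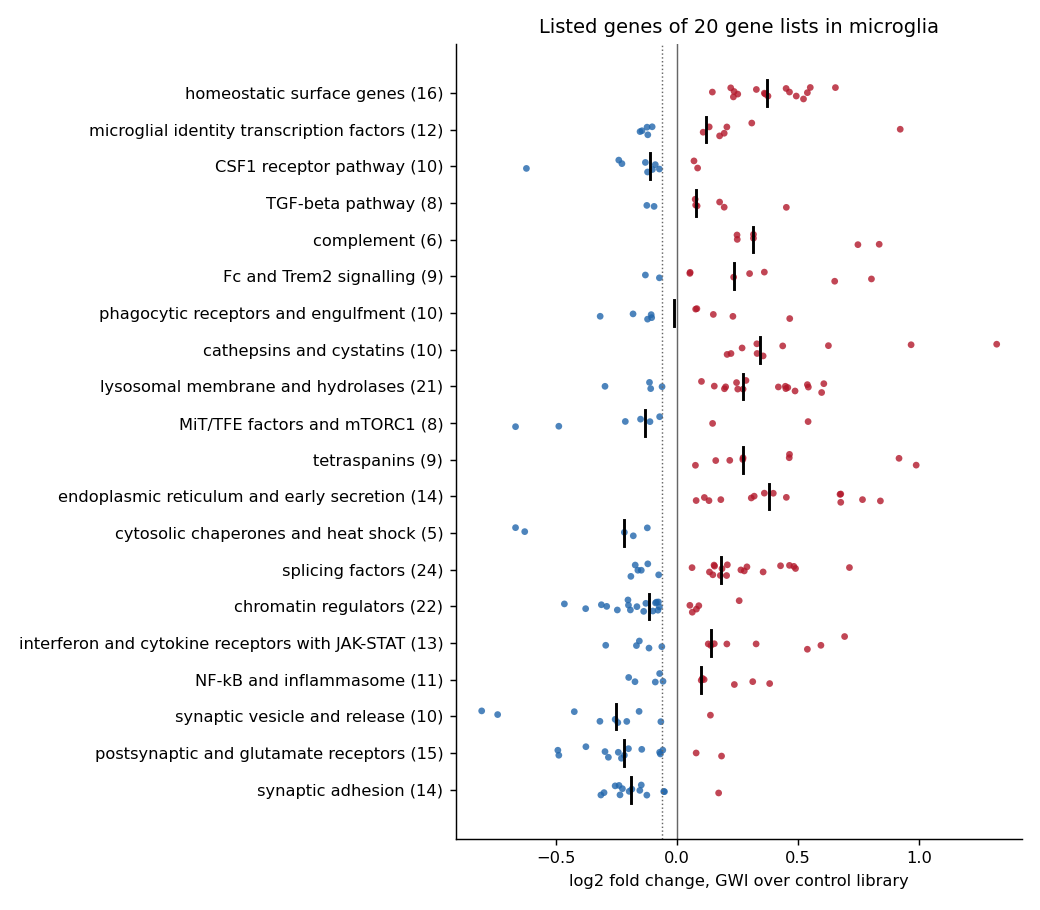
Log2 fold changes of the listed members of 20 gene lists in microglia, GWI over control library, with the number of listed members in parentheses. Each point is a gene (red above 0, blue below 0), short black bars mark list medians, the solid line marks 0 and the dotted line the median of all listed genes, -0.06. The homeostatic, complement, cathepsin, tetraspanin and ER lists have every listed member above 0, and the cytosolic chaperone list has every listed member below 0.

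Receptors for cytokines were mixed, with 8 of 13 listed genes higher of 27 and a median of 0.14. Il6st, the gp130 chain shared by receptors of the interleukin-6 family, was detected in 33.8% of GWI and 20.7% of control nuclei, with a log2 fold change of 0.69. Its partner Lifr was at 17.6% and 11.5% (0.59), while Il6ra, the interleukin-6 binding chain, was at 32.4% and 34.6% (-0.16). Ifngr1, a chain of the interferon-gamma receptor, was at 34.7% and 23.8% (0.54), and Il13ra1 at 10.8% and 8.4% (0.33), Ifnar2 at 19.5% and 16.4% (0.21) and Il1rap at 13.9% and 13.9% (-0.29). Of 24 interferon response genes, which report signalling through such receptors, only Trim30a is listed, at 17.1% and 17.6% (-0.23).

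Inflammatory signalling, inhibitory receptors and antigen presentation had few listed genes. Of 35 NF-kB and inflammasome genes 11 are listed and 6 were higher, with a median of 0.10. The lipopolysaccharide receptor gene Tlr4 was at 11% and 8.0% (0.38), the inflammasome sensor gene Nlrp1b at 19.1% and 14.7% (0.31), the kinase gene Map3k7 at 15% and 11% (0.24), Tlr7 at 0.11, Casp8 at -0.17 and the transcription factor gene Nfkb1 at 33.0% and 34.0% (-0.20). None of the interleukin-1, interleukin-6 or tumour necrosis factor genes is listed. Of 25 checkpoint and exhaustion genes 6 are listed and 5 were higher, with Havcr2, which encodes the inhibitory receptor TIM-3, at 27.1% and 21.2% (0.34), Lair1, a collagen-binding inhibitory receptor gene, at 56.7% and 48.0% (0.23), Vsir at 0.09, Tgfb1 at 0.08, Cd300a at 0.05 and Il10ra at -0.06. Of 18 genes of antigen presentation, H2-K1, a class I heavy chain gene, was at 14.2% and 9.8% (0.59) and B2m, its light chain, at 16.3% and 12.5% (0.22), and no class II gene is listed. H2-K1 has close relatives at its locus with which reads can be shared.

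Genes of movement and ion flux were split. Of 22 genes of chemokine reception and migration 9 are listed and 6 were higher. Itgb1, the beta-1 integrin gene, was at 23.4% and 18.1% (0.31), with Cx3cr1 at 0.23, Itga9 at -0.18, Rhoh at 0.14 and Arhgap45 at 0.11. Of 20 channel genes 10 are listed and 4 were higher, with the calcium channel gene Orai1 at 11.4% and 8.4% (0.40), Trpm2 at 10.9% and 11.9% (-0.29), P2rx7 at 0.22, Itpr2 at -0.15, Kcnk13, the resting potassium channel gene of microglia, at 34.4% and 33.0% (-0.14) and Kcnma1 at -0.09.

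Metabolic genes were sparsely listed. Of 26 genes of cholesterol and lipid handling 8 are listed and 6 were higher, with a median of 0.23. The acyl-CoA synthetase gene Acsl1 was at 12% and 8.6% (0.46), the lysosomal cholesterol carrier genes Npc2 and Npc1 at 15.6% and 11.2% (0.42) and at 20.3% and 16.1% (0.25), and Scd2 at 0.27, Soat1 at 0.22 and Acsl4 at 0.17. The cholesterol exporters lay below 0, with Abcg1 at 14.7% and 15.7% (-0.34) and Abca1 at 51.3% and 52.1% (-0.11). Of 21 glycolysis genes 5 are listed, with Pkm, the pyruvate kinase gene, detected in 7.1% of GWI and 10.2% of control nuclei (-0.82), Pfkp at -0.26, Hk2 at 0.12, Pfkfb3 at 0.10 and Ldhb at 0.06. Mitochondrially encoded transcripts, which in nuclei are carried over from the cytoplasm, differed in both directions, with 7 of 13 listed and 4 higher: mt-Nd4 was at 30.5% and 24.1% (0.26), mt-Co3 at 50.1% and 42.4% (0.23), mt-Nd1 at 0.22, mt-Nd2 at 0.06, mt-Co1 at -0.11, mt-Co2 at -0.13 and mt-Nd5 at -0.44. Of nuclear genes of oxidative phosphorylation 1 of 28 is listed, Sdha (0.26), and of cytosolic ribosomal protein genes Rpl5 (0.60) and Rplp1 (-0.08). Of the 18 immediate early genes 0 are listed, of 21 senescence and oxidative stress genes Fth1 (-0.10) and Nfe2l2 (-0.19), and of 17 clock genes Clock (0.12) and Rora (-0.15).

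Among genes that reached 25% detection in either library, the lowest log2 fold changes belonged to Hsp90ab1, to the cyclin gene Ccnd3, detected in 31.9% of GWI and 42.4% of control nuclei (-0.62), and to Tec, a kinase gene of immune receptor signalling, in 18.8% and 25.5% (-0.61). Ccnd3 lies at chr17:47505051-47599691 on the plus strand. Below -0.40 also lay the noncoding RNA gene Meg3, in 74.1% and 83.4% of nuclei (-0.52), Map1b (-0.51), Dgkb (-0.50), Gria3 (-0.49), Pde10a (-0.47), Mia2 (-0.46), the kinase genes Ptk2b (-0.46), Nuak1 (-0.45) and Mark2 (-0.44), Camk2n1 (-0.43), Pclo (-0.42) and the B-cell and macrophage factor gene Pou2f2 (-0.41). Several of these were detected in most excitatory neuron nuclei, such as Meg3 in 99.8% of GWI and 99.9% of control nuclei. There Pde10a was at 94.9% and 95.0%, Gria3 at 94.5% and 94.3%, Map1b at 90.9% and 91.6% and Dgkb at 89.3% and 91.9%. Ptk2b was at 75.7% and 75.9% and Mark2 at 71.6% and 73.7%. Nuak1 (38.7% and 40.2%) and Pou2f2 (31.4% and 30.9%) were detected in fewer, and Ccnd3 and Tec are not listed for those neurons. At the other end, the 15 highest genes of this detection class were Ctsl, Cd9, Cst3, Cd81, C1qc, C1qa, Il6st, Pdia3, Gpr34, Ctss, Lamp1, P2ry12, Atp6v0b and Ifngr1, given above, and Itm2b, a membrane protein gene whose mutations cause familial dementias, detected in 65.1% of GWI and 47.3% of control nuclei (0.71).

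Synaptic and neuronal transcripts were lower in the GWI library in most listed members. Of 64 genes of synaptic vesicles, glutamate receptors and synaptic adhesion 39 are listed, 4 higher and 35 lower, with a median of -0.22 and a mean detection of 35% in GWI and 37.5% in control nuclei. By the log2 ratio of detection percentages the median of the vesicle list went from -0.25 to -0.11 and that of the receptor list from -0.22 to -0.10. The median of that ratio over all listed genes was 0.095. The vesicle genes Sv2b and Syp were detected in 10.8% and 16.4% (-0.81) and in 7.5% and 10.6% (-0.74) of nuclei, and Syt1 had a log2 fold change of -0.32. Pclo (-0.42), Sv2a (-0.26) and Syn2 (-0.24) followed. Of the receptor and scaffold genes, Homer1 was at -0.49, Gria3 at 26.3% and 32.2% (-0.49), Grm5 at -0.38, Gria2 at 41.0% and 49.5% (-0.30), Grm7 at -0.28 and Grik2 at -0.24, and of the adhesion genes Lsamp was at -0.32, Csmd1 at -0.30, Ntm at -0.26, Nlgn1 at -0.24, Lrrtm4 at -0.24 and Opcml at -0.23. Adgrb3 (44.2% and 53.3%, -0.38) and Phactr1 (51.6% and 60.3%, -0.41) were among the 10 largest differences in detection in this direction. Markers of other cell types showed the same direction: 14 of the 15 listed were lower, with a median of -0.21. The part of these transcripts in the microglial genes above was not tested.

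The other cell type tables share the same pair of libraries, so they are not independent of the microglial table and their values are given beside it. Ctsl, Cst3 and Cd81 were above 0 in each table that lists them among excitatory and inhibitory neurons, oligodendrocytes, oligodendrocyte precursor cells (OPCs), astrocytes and the group named Other. Ctsl was at 0.48, 0.72, 0.56, 0.52 and 0.49 in excitatory neurons, inhibitory neurons, OPCs, astrocytes and Other, against 1.32 in microglia. Cd9 was at 0.80 in oligodendrocytes and 1.09 in OPCs, close to its microglial 0.99, and at 2.25 in the endothelial table. Lamp1 was at 0.28 to 0.59 in the 6 tables. In the endothelial and pericyte tables Lamp1 was at -0.08 and 0.53, and Cd81 at -0.10 and 0.40. Among the 5 tables compared next, the share of all genes that were higher ran from 44.5% (oligodendrocyte) to 52.3% (excitatory neuron). ER genes were higher in 25 of 26 listed genes in excitatory neurons, 25 of 29 in inhibitory neurons, 9 of 9 in oligodendrocytes, 21 of 28 in OPCs and 21 of 25 in astrocytes. Cytosolic chaperones were higher in 0 of 9, 3 of 11, 2 of 8, 4 of 11 and 2 of 11 in the same order, splicing factors in 17 of 22, 21 of 26, 16 of 23, 18 of 25 and 17 of 22, and chromatin regulators in 7 of 23, 7 of 25, 2 of 16, 7 of 23 and 7 of 25. In the endothelial table ER genes were higher in 17 of 37. In the pericyte table splicing factors were higher in 10 of 23, chromatin regulators in 11 of 21 and lysosomal genes in 4 of 9. These counts lay near the share of all genes that were higher, 48.4% in the endothelial and 47.2% in the pericyte table. Those lists thus lacked there the clear direction they had in microglia, without a clear reversal. Endothelial nuclei had 11 of 18 lysosomal genes higher. Tetraspanins were higher in 5 of 9 in the endothelial and 3 of 4 in the pericyte table, and cathepsins and cystatins in 7 of 7 and 2 of 2. Listed lysosomal genes were higher in 14 of 17, 17 of 20, 9 of 11, 11 of 14 and 13 of 16 in the 5 tables from excitatory neurons to astrocytes, tetraspanins in 5 of 5, 5 of 6, 4 of 5, 7 of 7 and 6 of 6, and cathepsins and cystatins in 4 of 5, 4 of 5, 3 of 4 and 5 of 5, with 0 listed in oligodendrocytes. No complement gene is listed in those 5 tables, and of the homeostatic genes listed there 2 of 3, 2 of 2, 2 of 3 and 3 of 4 were higher, with 0 listed in oligodendrocytes. Endothelial nuclei had 6 of these genes listed and 5 higher (median 0.65).

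The microglial value minus the median of those tables, for genes listed in at least 3 of them, was highest for Etv5. Its log2 fold change was -0.55 in excitatory neurons, -0.66 in inhibitory neurons, -0.12 in OPCs, -0.20 in astrocytes and -0.31 in Other, so that microglia alone among these tables was above 0, and the difference was 1.23. Etv5 lies at chr16:22381309-22439719 on the minus strand. Next came Rfc1, a clamp-loader subunit gene of DNA replication (0.82), Ctsl (0.80), Nhs (0.79), Tmed5 (0.69), the chromodomain gene Cdyl2 (0.66), Tmed9 (0.62), the zinc finger gene Zc3h6 (0.61), Cst3 (0.61) and Plek, a substrate of protein kinase C in blood cells (0.60). Of these, Plek was detected in 27.2% of GWI and 19.0% of control microglial nuclei and Zc3h6 in 10.3% and 5.6%. At the low end stood Rassf3 and the MAX-binding factor gene Mga (both -0.80), the methionine adenosyltransferase gene Mat2a (-0.72), the casein kinase subunit gene Csnk2a2 (-0.71), the dynein adaptor gene Bicd1 (-0.65), Tmem87b (-0.65), the adhesion molecule gene Alcam (-0.64), Frrs1l (-0.62), Gria3 (-0.57) and Nap1l1 (-0.56). Alcam was detected in 15.3% and 21.6% of microglial nuclei with its own log2 fold change at -0.78. For Rassf3 the microglial value was -0.10, so its distance came from the other tables, where it was at 0.46 to 0.88.

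**Figure D4:**
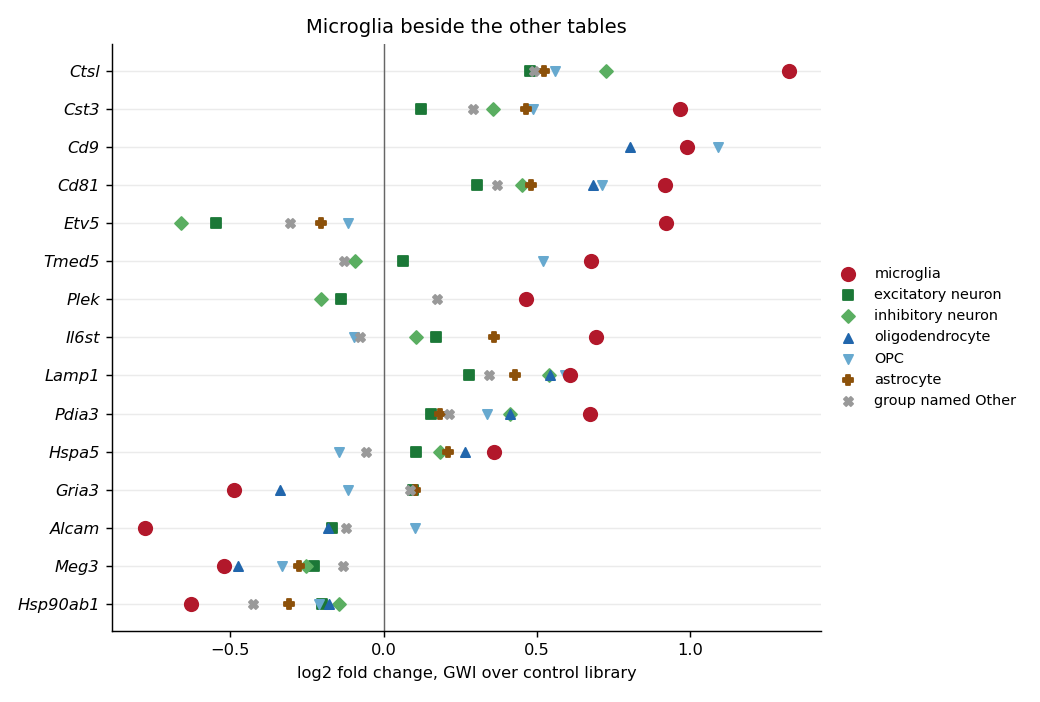
Log2 fold change, GWI over control library, of 15 genes in microglia (red circles) and in the excitatory neuron, inhibitory neuron, oligodendrocyte, OPC, astrocyte and Other tables that list them. Etv5 is at 0.92 in microglia and between -0.66 and -0.12 elsewhere, while Cd9 and Lamp1 in microglia lie near their values in other tables.

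Of the 2534 genes, 135 are listed in microglia and in no other table of the series. Of these, 99 were higher and 36 were lower, with a median of 0.15. Over all listed genes 46.8% were higher and the median was -0.06. C1qa, Gpr34 and Mir142hg are among the 135. A gene can be missing from another table because it differed little there. Listing in microglia alone therefore does not show that a gene is specific to microglia.

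Gene length moved with the direction of the difference. RefSeq lengths were found by symbol for 2501 genes (98.7%), and across these genes the log2 fold change and length had a Spearman correlation of -0.34, a description over genes that share the same 2 libraries. In 5 classes of nearly equal number, from the shortest to the longest genes, the medians were 0.16, 0.08, -0.07, -0.10 and -0.13, and 69.9%, 55.4%, 44.7%, 38.1% and 25.2% of the genes were higher. Several lists above consist mostly of short genes. The shortest class, up to 33.7 kb, held 12 of the 16 listed homeostatic genes, 4 of 6 complement genes, 8 of 10 cathepsin and cystatin genes, 15 of 21 lysosomal genes, 6 of 9 tetraspanins, 11 of 14 ER genes and 16 of 24 splicing genes. It also held 3 of the 5 cytosolic chaperones, which lay in the other direction, and 1 of 22 chromatin regulators. The neuronal lists, which were mostly lower, had long genes, with median lengths of 171 kb for vesicle genes, 396 kb for glutamate receptors and scaffolds and 1014 kb for adhesion genes. The part of gene length in the lists' values was not tested.

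**Figure D5:**
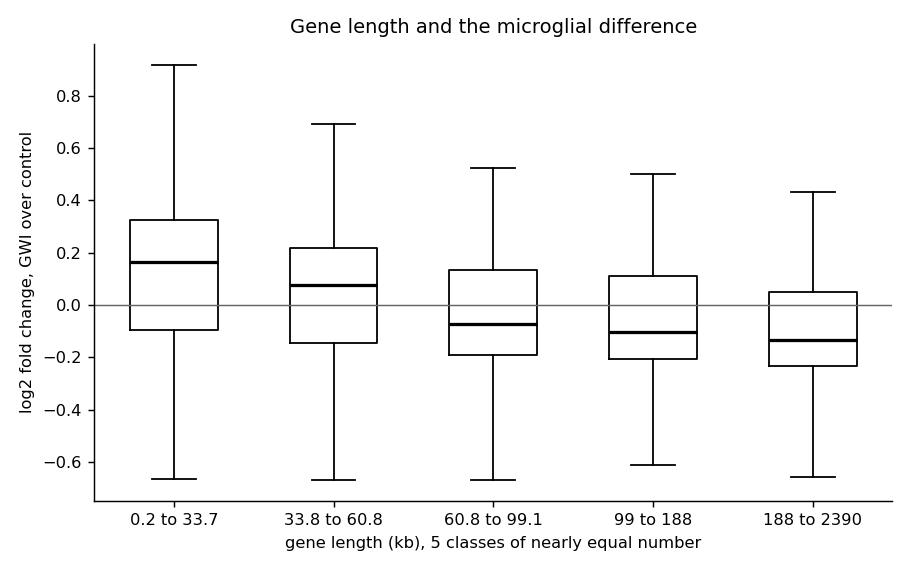
Log2 fold change, GWI over control library, of listed microglial genes in 5 classes of gene length, in kb. Boxes span the quartiles, thick lines mark medians, whiskers reach the farthest gene within 1.5 times the box height and genes beyond them are not drawn; medians run from 0.16 in the shortest class to -0.13 in the longest.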

How the data were processed

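Per the labels' protocols, a tissue dissociator released nuclei from pooled hippocampi, which were captured by 10x Genomics 3′ chemistry and read to a depth of 25000 reads or more for each nucleus. The submitters' processing notes name Cell Ranger and GRCm38 (mm10). Not given in the sources used here are the clustering program, how doublets and free RNA were handled, the scaling of the means and the number of nuclei in each table.

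The authors' deposited log2 fold changes compare mean expression per gene between the libraries. The detection values are deposited as fractions of nuclei and appear here as percentages. Per the file headers the groups are numbered and not named, so the first was taken as GWI from the comparison label, where PBS was taken to mean what the library names call vehicle, and every direction rests on that reading. The authors' p-values treat nuclei as the units, which are not replicates, and were left out.

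The members and the 47 gene lists were chosen with earlier results of these data known. Named genes were those 1 or more from 0 on the log2 scale, the 15 highest and 15 lowest among genes detected in at least 25% of nuclei, the 10 largest differences in detection in each direction, the markers, all listed members of lists with up to 8 and the 6 largest of longer ones, and the 10 genes farthest above and below the median of 6 other tables. Some genes that this rule selects are not reported here by name, and further list members were named after their values were seen. The endothelial and pericyte tables were left out of that median. The counting step was tested on simulated data. Positions came from GENCODE M21, and gene lengths and sequences from RefSeq. Other settings were centring on the table median, subtracting other cell types, a 25% detection minimum, the mean, the log2 ratio of detection percentages and a size of 0.5. Computations ran in Python 3.11.15 (scipy 1.17.1, pandas 2.3.3, numpy 2.4.6), with figures from matplotlib 3.10.9.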

Additional observations from a re-analysis of the deposited data

Results flagged for a closer look

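Both genes below differed in direction between microglia and every other table that lists them among neurons, oligodendrocytes, OPCs, astrocytes and the group named Other, and the difference was not tested. Etv5 was at a log2 fold change of 0.923 in microglia, detected in 20.2% of GWI and 10.8% of control nuclei, and between -0.66 and -0.12 in 5 other tables. Bicd1, which encodes a dynein adaptor, was at -0.541 in microglia, detected in 11.8% and 13.6% of nuclei, and between 0.05 and 0.14 in 4 other tables.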

How the results depend on the processing

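No paired analysis was possible because each group is 1 library. The number of genes at or past the size of 1 in the higher direction, 3, became 5 after centring on the table median, 1 after subtracting other cell types and 75 at a size of 0.5, where the lower count went from 0 to 58. The share of genes higher in GWI, 46.8%, was 67.4% by the log2 ratio of detection percentages. For 31 lists with at least 3 listed members, a median counted as moved beyond 0.1. Centring left 29 lists within that and turned the engulfment list to 0.049 and ion channels to 0.005. Subtracting other cell types was possible for 25 lists and used only genes listed in at least 2 of the 6 other tables. It covered 5 of 10 cathepsins and cystatins and 6 of 9 genes of the disease-associated state. It gave 0.534 for cathepsins, 0.124 for lysosomal genes, 0.136 for tetraspanins, -0.007 for NF-kB, 0.025 for ion channels and -0.005 for lipid handling. It also gave 0.092 for the disease-associated state, -0.097 for glycolysis, 0.269 for ER genes, -0.318 for cytosolic chaperones, 0.028 for splicing and 0.007 for chromatin. At a 25% detection minimum, which left 24 lists, the values were 0.479 for cathepsins, 0.468 for lysosomal genes, 0.568 for tetraspanins, -0.063 for cytokine receptors and -0.005 for migration. The ratio of detection percentages gave 0.133 for engulfment, 0.041 for autophagy, 0.033 for ion channels and -0.037 for cytosolic chaperones. By the same ratio the values were -0.006 for the CSF1 receptor list, -0.005 for MiT/TFE and mTORC1 and 0.009 for chromatin. The median log2 ratio over all listed genes was 0.095. The mean gave 0.452 for complement, 0.017 for engulfment, 0.507 for cathepsins, 0.426 for tetraspanins, -0.160 for glycolysis, -0.364 for cytosolic chaperones and -0.125 for glucocorticoid genes. The causes were not tested. With 1 library of 3 pooled mice per group, neither the spread between mice nor the counting error can be given.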
